A study of Mus musculus with 8 samples.

Results

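RNA sequencing of mouse colon gave 8 libraries, and the pair described here sets the library labelled KO non-polyp against the WT polyp library, both of day 112. The pair was picked by sample title, 2 of 8 libraries, after their similarity had been seen in these data. How alike these libraries are, and which genes still set them apart, is therefore a description with no test. The mice were of the BALB/cA strain. KO stands for DCIR-/-, the loss of an inhibitory lectin receptor of myeloid cells that the gene Clec4a2 encodes, and WT for wild type. Day 112 is counted in an AOM-DSS course, in which azoxymethane, a carcinogen, is combined with dextran sulfate sodium, which injures the colon epithelium, so that polyps form. Libraries of KO polyp and WT non-polyp tissue came from the same day, and steady-state colon and colon on day 12 of DSS came in both genotypes. Each group was 1 library. The labels do not say whether a library held 1 mouse or several, where in the colon the tissue lay, or which libraries shared a mouse. Genotype, animal, place in the colon and library therefore cannot be told apart in any difference below, and no difference has a replicate check.

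The colon lining renews itself from crypt stem cells kept by WNT signals, and their progeny become absorptive colonocytes, mucus-making goblet cells, enteroendocrine cells and tuft cells. In AOM-DSS polyps WNT signalling is known to be switched on, and the epithelium expands over a stroma of fibroblasts, vessels and immune cells, while a full-thickness piece of colon also brings smooth muscle and enteric neurons. Mucosal mast cells settle between the epithelial cells and release chymase-type proteases. Hox genes keep a record of position along the body axis, and those at the 5′ ends of their clusters, numbered from 9 upward, mark the hindgut.

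Levels are in TPM, read abundance divided by transcript length and scaled to a common library total, so that genes can be compared as well as libraries. Differences are in log2(TPM + 1), the library labelled KO non-polyp minus WT polyp, so a difference of 1 is a 2-fold change in TPM + 1 and understates the change of genes near 0. A gene counted as apart where that difference was at least 1 in size. This was asked of 16863 genes with a mean of at least 1 TPM over the 8 libraries. Aligned bases implied by coverage came to 3.03 gigabases in the library labelled KO non-polyp and 2.89 gigabases in WT polyp, and all 8 libraries lay between 2.70 and 3.35 gigabases. At least 1 TPM was reached by 16430 genes in the library labelled KO non-polyp and by 15986 genes in WT polyp.

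The genotype labels held in both libraries. Clec4a2 (chr6:123106428-123143999, GRCm38, plus strand) was listed at 0 in the library labelled KO non-polyp and at 3.68 TPM in WT polyp, and at 0 in KO polyp against 2.74 TPM in WT non-polyp. It was also listed at 0 in KO after DSS against 4.33 TPM in WT after DSS, and reached 0.659 TPM in KO at steady state against 2.96 TPM in WT at steady state. All 4 KO libraries lay below all 4 WT libraries. The tissue label did not hold in the same way. Smooth muscle genes, 15 of them, summed to 1026 TPM in the library labelled KO non-polyp and 1123 TPM in WT polyp, and to 662 TPM in KO polyp against 14662 TPM in WT non-polyp. WNT target and stem cell genes, 28 of them, summed to 3228 TPM in the library labelled KO non-polyp and 2756 TPM in WT polyp, and to 2854 TPM in KO polyp against 408 TPM in WT non-polyp. On both lists the library labelled KO non-polyp lay with the 2 polyp libraries and away from WT non-polyp. Intestinal genes were expressed in both members of the pair. Cdx1, an intestinal transcription factor, had 119 TPM in the library labelled KO non-polyp and 140 TPM in WT polyp. Krt20, a keratin of differentiated colonocytes, had 311 TPM in the library labelled KO non-polyp and 332 TPM in WT polyp. Krt20 had 823 TPM in WT non-polyp.

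Promoters are shown for 4 genes that carry the differences described below: the mast cell proteases Mcpt1 and Mcpt4 and the homeobox gene Hoxd12, which were higher in the library labelled KO non-polyp, and the alpha-defensin Defa30, which was lower. Each run is the 250 bases before the gene's start in RefSeq (build GRCm38.p6), 5′ to 3′ on the gene's strand. The windows are chr14:56017714-56017963 on the plus strand for Mcpt1, chr14:56062311-56062560 on the minus strand for Mcpt4, chr8:21134400-21134649 on the plus strand for Defa30, and chr2:74674763-74675012 on the plus strand for Hoxd12. Capitals mark 2 motifs searched on both strands: TGATAA, which GATA factors can bind (TTATCA when read on the other strand), and ATCAAAG, which TCF and LEF factors, the DNA-binding partners of WNT signalling, can bind (CTTTGAT on the other strand). The motifs do not overlap in these windows.
Mcpt1: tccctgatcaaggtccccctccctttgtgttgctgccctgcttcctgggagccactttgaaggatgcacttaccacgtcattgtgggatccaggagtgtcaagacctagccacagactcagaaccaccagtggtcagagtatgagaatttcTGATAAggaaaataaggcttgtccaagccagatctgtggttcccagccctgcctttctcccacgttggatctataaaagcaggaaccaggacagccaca
Mcpt4: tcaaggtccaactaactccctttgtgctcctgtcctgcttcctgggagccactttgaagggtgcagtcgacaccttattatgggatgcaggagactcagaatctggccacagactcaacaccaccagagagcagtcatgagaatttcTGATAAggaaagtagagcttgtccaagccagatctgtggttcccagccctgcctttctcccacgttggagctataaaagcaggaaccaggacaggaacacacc
Defa30: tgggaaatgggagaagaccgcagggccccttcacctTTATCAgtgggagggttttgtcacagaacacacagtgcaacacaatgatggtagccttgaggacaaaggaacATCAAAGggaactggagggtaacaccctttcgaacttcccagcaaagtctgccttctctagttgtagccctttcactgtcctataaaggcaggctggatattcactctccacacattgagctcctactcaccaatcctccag
Hoxd12: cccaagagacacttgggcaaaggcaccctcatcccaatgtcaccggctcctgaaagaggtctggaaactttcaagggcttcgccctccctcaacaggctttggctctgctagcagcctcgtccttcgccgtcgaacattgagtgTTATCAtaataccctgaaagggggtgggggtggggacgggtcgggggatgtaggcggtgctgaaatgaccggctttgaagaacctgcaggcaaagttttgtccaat

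TGATAA stood in 7.94% of the 32851 RefSeq windows of this length and ATCAAAG in 3.21%. Of 5 mast cell protease genes with a window in the table, Mcpt1 and Mcpt4 held TGATAA and none held ATCAAAG. Mcpt1 and Mcpt4 are close relatives on chromosome 14, and their windows share an unbroken run of 53 bases, so they are not independent examples. The windows of 6 alpha-defensin genes each held both motifs, and these genes are also near copies of each other. Of 7 Hoxd genes with a window, Hoxd8 and Hoxd12 held TGATAA and Hoxd8 held ATCAAAG. These matches describe the letters only.

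In the pair, 1082 of 16863 genes (6.42%) were at least 2-fold apart, 768 of them (4.55%) higher in the library labelled KO non-polyp and 314 (1.86%) lower. Counts of list members below are to be read beside these shares. The split leans on scaling: the median difference of all genes was 0.12, so 71.0% of the genes apart were higher, whereas after median-of-ratios rescaling the median of all genes was -0.04 and 53.6% were higher, and with FPKM 56.7% were. Across genes, log2(TPM + 1) in the library labelled KO non-polyp correlated with WT polyp at a Spearman rho of 0.967, with WT non-polyp at 0.859 and with KO polyp at 0.983, over 16863 genes that are not independent replicates. By the number of genes apart, KO polyp was the nearest library, with 484 genes, and WT polyp came next. WT non-polyp was 4153 genes away, close to the distances of 4199 genes to WT at steady state and 4238 to KO at steady state. Of all genes, 11086 (65.74%) stood nearer to KO polyp than to WT polyp in the library labelled KO non-polyp.

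**Figure D1:**
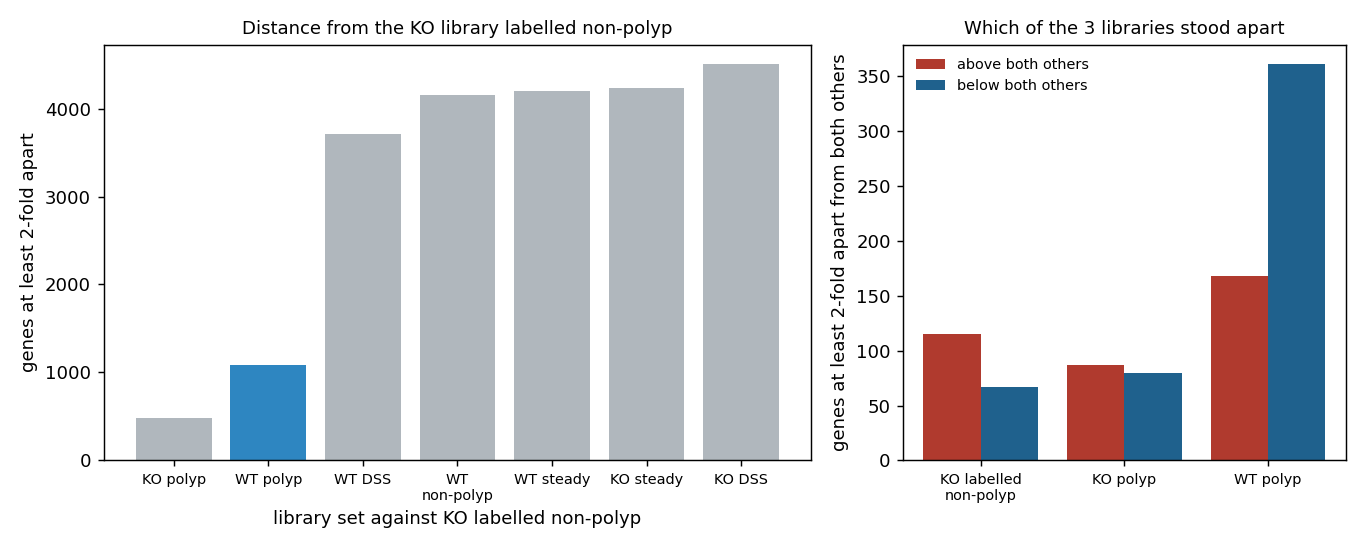
Left, number of genes at least 2-fold apart between the library labelled KO non-polyp and each of the other 7 libraries (1 library per bar, WT polyp in blue). Right, number of genes at least 2-fold above (red) or below (blue) both other libraries, for the library labelled KO non-polyp, KO polyp and WT polyp. The bar of WT polyp on the left is 1082 genes against 4153 for WT non-polyp, and on the right WT polyp has the most genes apart, 168 above and 361 below.

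How fully the library labelled KO non-polyp matched a polyp was asked with genes chosen outside the pair. KO polyp and WT non-polyp were at least 2-fold apart in 4344 genes (25.8%), 2535 of them (15%) higher in KO polyp and 1809 (10.7%) lower. Of these 4344 genes, 3801 (87.5%) were under 2-fold apart between the library labelled KO non-polyp and WT polyp, against 95.7% of the other 12519 genes. Among the 2535 genes that were higher in KO polyp, the median difference from WT non-polyp was 1.36 in the library labelled KO non-polyp and 1.03 in WT polyp. Among the 1809 genes that were lower in KO polyp, the same medians were -1.54 in the library labelled KO non-polyp and -1.39 in WT polyp. The library labelled KO non-polyp therefore lay at least as far from WT non-polyp as WT polyp did, in both directions. These medians share the WT non-polyp library, which also chose the genes, and KO polyp, the other chooser, shares its genotype with the library labelled KO non-polyp. The 4344 genes can also include what is particular to WT non-polyp, which was 2090 genes away from WT at steady state. Mmp7 had 514 TPM in KO polyp and 8.77 TPM in WT non-polyp, but 124 to 274 TPM at steady state and after DSS. How many of the 4344 were of this kind was not counted. The polyp genes that were apart in the pair, 342 higher and 201 lower in the library labelled KO non-polyp, made up 12.5% of the 4344, beside 6.42% of all genes.

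Epithelial genes as a whole did not set the pair apart. None of the 12 pan-epithelial genes, such as Epcam and the keratins Krt8 and Krt19, was 2-fold apart, and their median difference was 0.02, which turns to -0.17 with median-of-ratios rescaling. Of the 28 WNT target and stem cell genes 1 was apart, with a list median of 0.35 beside 0.12 for all genes. Lgr5, a receptor that marks crypt stem cells, had 15.2 TPM in the library labelled KO non-polyp and 12.7 TPM in WT polyp, and 15.8 TPM in KO polyp against 0.097 TPM in WT non-polyp. Notum, a secreted WNT antagonist, had 331 TPM in the library labelled KO non-polyp and 317 TPM in WT polyp, and 249.4 TPM in KO polyp against 2.41 TPM in WT non-polyp. Both genes were near 0 in WT non-polyp and at like levels in the other 3 libraries. Cd44, a hyaluronan receptor and WNT target, was the member apart, with 124 TPM in the library labelled KO non-polyp and 60.4 TPM in WT polyp, and 131 TPM in KO polyp against 47.9 TPM in WT non-polyp. The difference for Cd44 was 1.03, just past the line, and Sox9, a progenitor transcription factor, stayed inside it at 0.87. No cell cycle gene of 20 was apart, and the list median was 0.31.

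Goblet cell genes differed in part. Of 18 goblet cell genes, 7 were at least 2-fold lower in the library labelled KO non-polyp (1.86% of all genes were) and none was higher, with a list median of -0.77. Zg16, a lectin-like protein of goblet cell mucus, had 943 TPM in the library labelled KO non-polyp and 4233 TPM in WT polyp, and 766 TPM in KO polyp against 11616 TPM in WT non-polyp. Klk1, a kallikrein protease of goblet cells, had 231 TPM in the library labelled KO non-polyp and 1073 TPM in WT polyp, and 216 TPM in KO polyp against 2790 TPM in WT non-polyp. In both genes WT polyp stood between the 2 KO libraries and WT non-polyp. Muc2, the gel-forming mucin of the colon, had 457 TPM in the library labelled KO non-polyp and 951 TPM in WT polyp, and 374 TPM in KO polyp against 2419 TPM in WT non-polyp. At steady state Muc2 had 367 TPM in KO and 390 TPM in WT, and after DSS 897 TPM in KO and 858 TPM in WT. Zg16 had 6543 to 11431 TPM in the steady-state and DSS libraries. The trefoil peptide Tff3 (difference -1.08), Spink4 (-1.07), Rep15 (-1.44) and the anion channel Best2 (-1.71) were the other members apart. Best2 was alike in both WT libraries of day 112, at 47.4 TPM in WT polyp and 45.3 TPM in WT non-polyp. Spdef and Atoh1, transcription factors that direct the secretory fate, were under 2-fold lower, at -0.90 and -0.65. The whole list summed to 4825 TPM in the library labelled KO non-polyp and 12363 TPM in WT polyp, and to 4189 TPM in KO polyp against 31586 TPM in WT non-polyp. Of the 18 genes 16 stood nearer to KO polyp than to WT polyp (65.74% of all genes did). In bulk tissue, fewer cells of a type and less RNA per cell cannot be told apart.

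Absorptive colonocyte genes were lower in part. Of 27 genes, 7 were at least 2-fold lower in the library labelled KO non-polyp (1.86% of all genes were). None was higher, and the list median was -0.19. Slc51b, a subunit of the basolateral bile acid exporter, had 2.86 TPM in the library labelled KO non-polyp and 18.0 TPM in WT polyp, and 3.13 TPM in KO polyp against 54.2 TPM in WT non-polyp. Aqp8, a water channel of surface colonocytes, had 12.7 TPM in the library labelled KO non-polyp and 57.5 TPM in WT polyp, and 5.07 TPM in KO polyp against 314 TPM in WT non-polyp. Again the 2 KO libraries were lowest and WT non-polyp highest. Other members apart included the sulfotransferase Sult1a1 (difference -1.41), the sodium channel subunit Scnn1g (-1.35), Tmigd1 (-1.32) and the carbonic anhydrase Car4 (-1.02). Scnn1g had another order, with only WT polyp high: 1.81 TPM in the library labelled KO non-polyp and 6.17 TPM in WT polyp, and 1.73 TPM in KO polyp against 1.94 TPM in WT non-polyp. Krt20, the fatty acid-binding protein Fabp2 and Cyp2c55 were not apart, at -0.09, -0.10 and 0.30, although each was far higher in WT non-polyp: Cyp2c55, a cytochrome P450, had 14.6 TPM in the library labelled KO non-polyp and 11.7 TPM in WT polyp, and 4.90 TPM in KO polyp against 598 TPM in WT non-polyp. Enteroendocrine genes were mixed, with 2 of 14 higher (Tph1 and Nts) and 2 lower (the hormones Sst and Insl5). Tph1, which makes serotonin, is used by mast cells of the mouse as well as by enterochromaffin cells, and Chga, the general enteroendocrine marker, differed by -0.55. No tuft cell gene of 8 was apart, and the list median was 0.62.

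**Figure D2:**
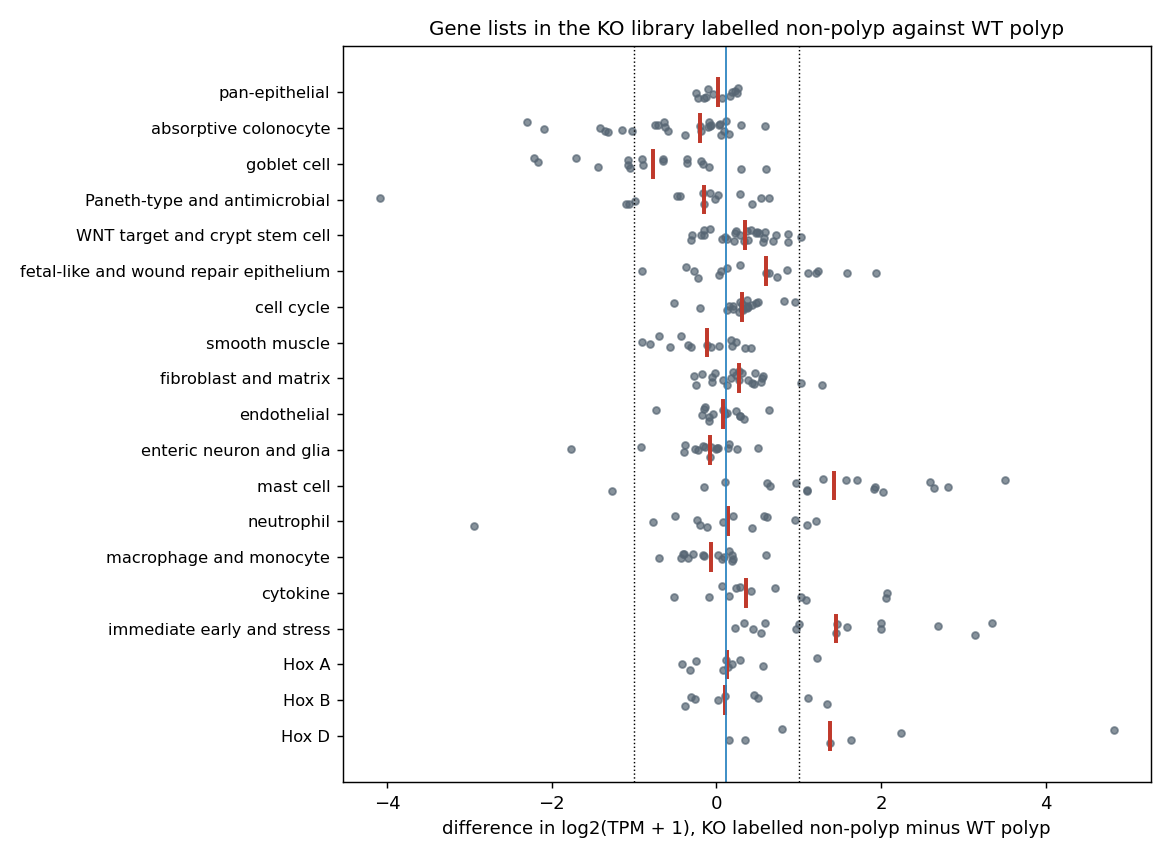
Difference in log2(TPM + 1), the library labelled KO non-polyp minus WT polyp, for the measured members of 19 gene lists (grey dots, 1 gene each, spread vertically only for visibility). Red bars are list medians, the blue line is the median of all genes (0.12) and the dotted lines are the 2-fold limits at -1 and 1. The mast cell, immediate early and Hox D lists sit to the right, with medians of 1.43, 1.45 and 1.38, and the goblet cell list sits to the left at -0.77.

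Antimicrobial genes gave the lowest member of any list. Of 15 Paneth-type and antimicrobial genes, 3 were at least 2-fold lower (1.86% of all genes were) and none higher. Reg3b, a bactericidal lectin, had 4.84 TPM in the library labelled KO non-polyp and 98.4 TPM in WT polyp, and 17.1 TPM in KO polyp against 260 TPM in WT non-polyp, a difference of -4.09. Its level was at most 4.08 TPM at steady state and after DSS, so it was the day 112 WT libraries that stood high. Lyz1, the Paneth cell lysozyme, had another order: 286 TPM in the library labelled KO non-polyp and 610 TPM in WT polyp, and 471 TPM in KO polyp against 36.4 TPM in WT non-polyp. Reg3g, a relative of Reg3b, was the third member apart, at -1.06. Pla2g2a, a secreted phospholipase, had 18377 TPM in the library labelled KO non-polyp and 18173 TPM in WT polyp, and 19433 TPM in KO polyp against 631 TPM in WT non-polyp. Mmp7, the protease that activates alpha-defensins in the mouse, had 400 TPM in the library labelled KO non-polyp and 541 TPM in WT polyp, and 514 TPM in KO polyp against 8.77 TPM in WT non-polyp. Pla2g2a and Mmp7 thus ran high in all of these day 112 libraries except WT non-polyp. At steady state and after DSS Mmp7 had 124 to 274 TPM, whereas Pla2g2a had 12.4 to 162 TPM.

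Alpha-defensins, peptides of Paneth cell granules, were added as a family after their values had been seen. All 12 measured Defa genes were lower in the library labelled KO non-polyp, 9 of them at least 2-fold (1.86% of all genes were), with a median of -1.91. Their TPM summed to 594 in the library labelled KO non-polyp and 3044 in WT polyp, and to 946 in KO polyp against 45.1 in WT non-polyp. Steady-state and DSS libraries held at most 0.181 TPM of the family. Defa24 was the most abundant, with 254 TPM in the library labelled KO non-polyp and 1257 TPM in WT polyp, and 382 TPM in KO polyp against 16.0 TPM in WT non-polyp. Defa30, whose promoter is shown above, had 123 TPM in the library labelled KO non-polyp and 693 TPM in WT polyp, and 189 TPM in KO polyp against 9.05 TPM in WT non-polyp. All 3 polyp-like libraries expressed the family well above WT non-polyp, WT polyp the most. These genes lie close together on chromosome 8 and are near copies, so reads may be shared among them and the 12 values are not independent.

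Some injury-repair genes of the epithelium were higher in the library labelled KO non-polyp. Of 17 fetal-like and wound repair genes, 5 were at least 2-fold higher (4.55% of all genes were) and none lower, with a median of 0.61, and the other 12 were not apart. Ereg, an EGF receptor ligand, had 132 TPM in the library labelled KO non-polyp and 33.5 TPM in WT polyp, and 83.1 TPM in KO polyp against 13.5 TPM in WT non-polyp. Ccn1 and Ccn2, secreted matrix proteins, were higher by 1.59 and 1.23, and Sprr1a and Sprr2h, cornified envelope proteins, by 1.21 and 1.12. The fetal marker genes Ly6a and Clu were not apart, at -0.28 and -0.37. Of 9 squamous genes, the keratins Krt13 and Krt14 were apart, with Krt14 at 92.6 TPM in the library labelled KO non-polyp and 41.0 TPM in WT polyp, and 81.6 TPM in KO polyp against 2.99 TPM in WT non-polyp. Of 11 metallothionein and zinc transport genes none was apart: Mt4, a metallothionein of squamous epithelium, had 1632 TPM in the library labelled KO non-polyp and 2091 TPM in WT polyp, and 1425 TPM in KO polyp against 4.85 TPM in WT non-polyp. Mt4 marks WT non-polyp off from the other 3 libraries without separating the pair.

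Counts of stromal genes apart are to be read beside the 6.42% of all genes, which in lists this short comes to 1 or 2 genes. No smooth muscle gene of 15 was apart, and the list median was -0.11. Cnn1, calponin of contractile muscle, had 31.7 TPM in the library labelled KO non-polyp and 60.1 TPM in WT polyp, and 17.3 TPM in KO polyp against 1193 TPM in WT non-polyp. Des, the muscle intermediate filament desmin, had 39.4 TPM in the library labelled KO non-polyp and 69.5 TPM in WT polyp, and 17.2 TPM in KO polyp against 1333 TPM in WT non-polyp. Both muscle genes were lowest in KO polyp, and 13 of the 15 stood nearer to WT polyp than to KO polyp, or as near. Of all genes, 65.74% stood nearer to KO polyp. The muscle list thus ran the reverse of the goblet cell list. Of 23 fibroblast and matrix genes, 2 were higher and none lower, with a median of 0.27. Fn1, fibronectin, had 234 TPM in the library labelled KO non-polyp and 114 TPM in WT polyp, and 230 TPM in KO polyp against 135 TPM in WT non-polyp, and Tnc, the injury matrix protein tenascin C, differed by 1.28. The collagens Col1a1 and Col3a1 differed by 0.46 and 0.56. No endothelial gene of 15 was apart, and of 10 measured matrix metalloproteinase genes Mmp19 was apart, at 1.06. Of 17 enteric neuron and glia genes Vip, a neuropeptide of enteric neurons, was apart, with 2.13 TPM in the library labelled KO non-polyp and 9.62 TPM in WT polyp, and 0.533 TPM in KO polyp against 58.7 TPM in WT non-polyp. Among 11 adipocyte genes 2 were higher and 1 lower. Fabp4, a fatty acid-binding protein and the most abundant of them in the pair, was the lower one, with 34.7 TPM in the library labelled KO non-polyp and 74.0 TPM in WT polyp, and 30.9 TPM in KO polyp against 294 TPM in WT non-polyp. Car3 and Cfd were higher but near 0 in the pair, at 2.83 and 1.33 TPM in the library labelled KO non-polyp, 0.300 and 0.103 TPM in WT polyp, 0.543 and 0 TPM in KO polyp and 106 and 173 TPM in WT non-polyp. Adipoq, the defining adipokine, was 0.049 TPM in the library labelled KO non-polyp and 0.010 TPM in WT polyp, and 0 in KO polyp against 21.3 TPM in WT non-polyp.

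**Figure D3:**
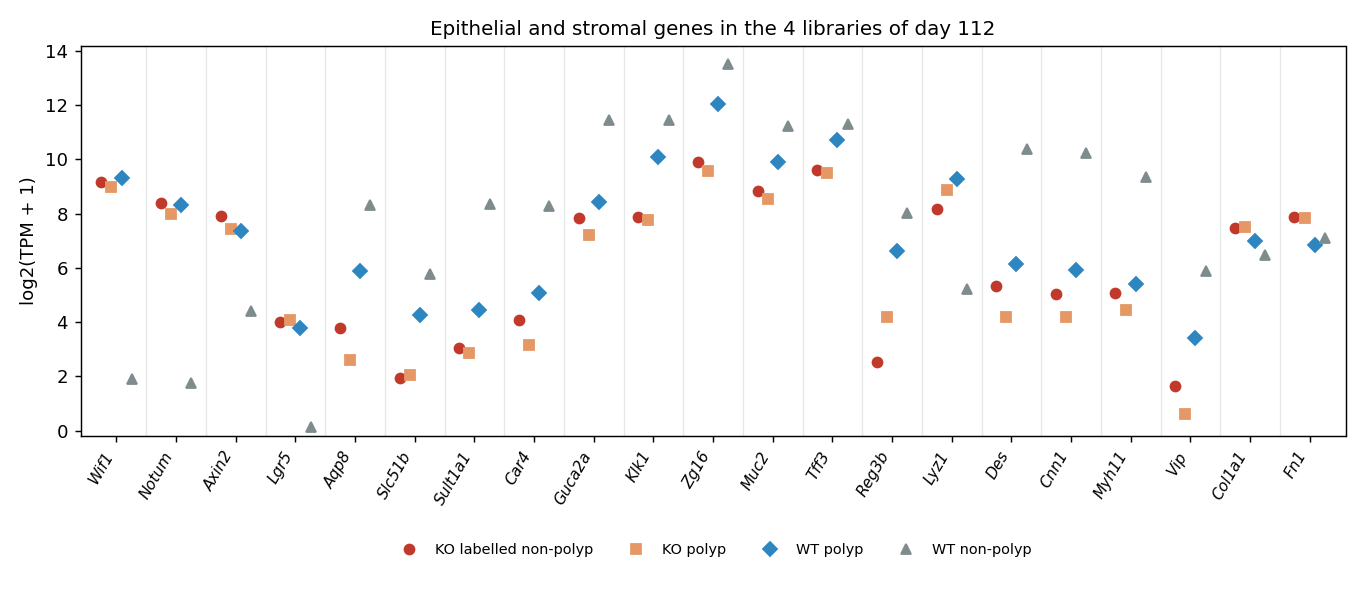
Levels, as log2(TPM + 1), of 21 epithelial and stromal genes in the library labelled KO non-polyp (red circles), KO polyp (orange squares), WT polyp (blue diamonds) and WT non-polyp (grey triangles), 1 library each. WNT genes at the left and muscle genes Des, Cnn1 and Myh11 separate WT non-polyp from the other 3 libraries, while for goblet and colonocyte genes such as Klk1, Zg16 and Aqp8 WT polyp lies between the KO libraries and WT non-polyp.

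Mast cell genes differed more widely than those of any other cell type listed. Of 18 measured genes, 12 were at least 2-fold higher in the library labelled KO non-polyp (4.55% of all genes were) and 1 was lower, with a median of 1.43. Mrgprb1, Mrgprb2 and Mitf, the other members of the list of 21, did not reach the level filter and stood at no more than 0.361 TPM in either library of the pair. The whole list summed to 3994 TPM in the library labelled KO non-polyp and 791 TPM in WT polyp, and to 3291 TPM in KO polyp against 228 TPM in WT non-polyp. At steady state and after DSS it summed to between 133 and 226 TPM.

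Proteases came first. Mcpt1 (chr14:56017971-56020384), a chymase of mucosal mast cells, had 2191 TPM in the library labelled KO non-polyp and 311 TPM in WT polyp, and 1776 TPM in KO polyp against 11.5 TPM in WT non-polyp, a difference of 2.81 in the pair. Mcpt2 (chr14:56042041-56044642), its close relative, had 1133 TPM in the library labelled KO non-polyp and 181 TPM in WT polyp, and 929 TPM in KO polyp against 5.54 TPM in WT non-polyp. Mcpt4, the chymase of connective tissue mast cells, had 70.6 TPM in the library labelled KO non-polyp and 10.8 TPM in WT polyp, and 60.9 TPM in KO polyp against 1.08 TPM in WT non-polyp. In all 3 genes both KO libraries were highest, WT polyp was intermediate and WT non-polyp lowest. Cma2 had the largest difference of the list, 3.51, with 18.6 TPM in the library labelled KO non-polyp and 0.717 TPM in WT polyp, and 11.9 TPM in KO polyp against 0.141 TPM in WT non-polyp. Cma1, a chymase (1.58), Mcpt9 (2.03), the carboxypeptidase Cpa3 (1.71) and the tryptases Tpsab1 (1.29) and Tpsb2 (1.10) were also apart. Neighbouring Mcpt genes may share reads.

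Receptors and regulators followed. Fcer1a, the IgE-binding chain of the high-affinity IgE receptor, had 38.4 TPM in the library labelled KO non-polyp and 9.45 TPM in WT polyp, and 31.5 TPM in KO polyp against 0.664 TPM in WT non-polyp. Ms4a2, the beta chain of that receptor, differed by 1.93, and Gata2, a transcription factor that mast cells need, by 1.10. Hdc, which makes histamine, fell just short at 0.96, with 14.98 TPM in the library labelled KO non-polyp and 7.19 TPM in WT polyp. Hpgds, the prostaglandin D synthase, and Il1rl1, the interleukin-33 receptor, differed by 0.65 and 0.61. Kit, the stem cell factor receptor, which interstitial cells of Cajal in gut muscle also carry, had 11.6 TPM in the library labelled KO non-polyp and 12.9 TPM in WT polyp, and 18.1 TPM in KO polyp against 32.5 TPM in WT non-polyp. Rab27b, a granule-release GTPase also found in other secretory cells, differed by 0.10, and by -0.07 with median-of-ratios rescaling. Tpsg1, the transmembrane tryptase, was the member at least 2-fold lower, with 9.98 TPM in the library labelled KO non-polyp and 25.4 TPM in WT polyp, and 9.93 TPM in KO polyp against 108 TPM in WT non-polyp. Kit, Rab27b and Tpsg1 were highest in WT non-polyp, unlike the other 15 genes.

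**Figure D4:**
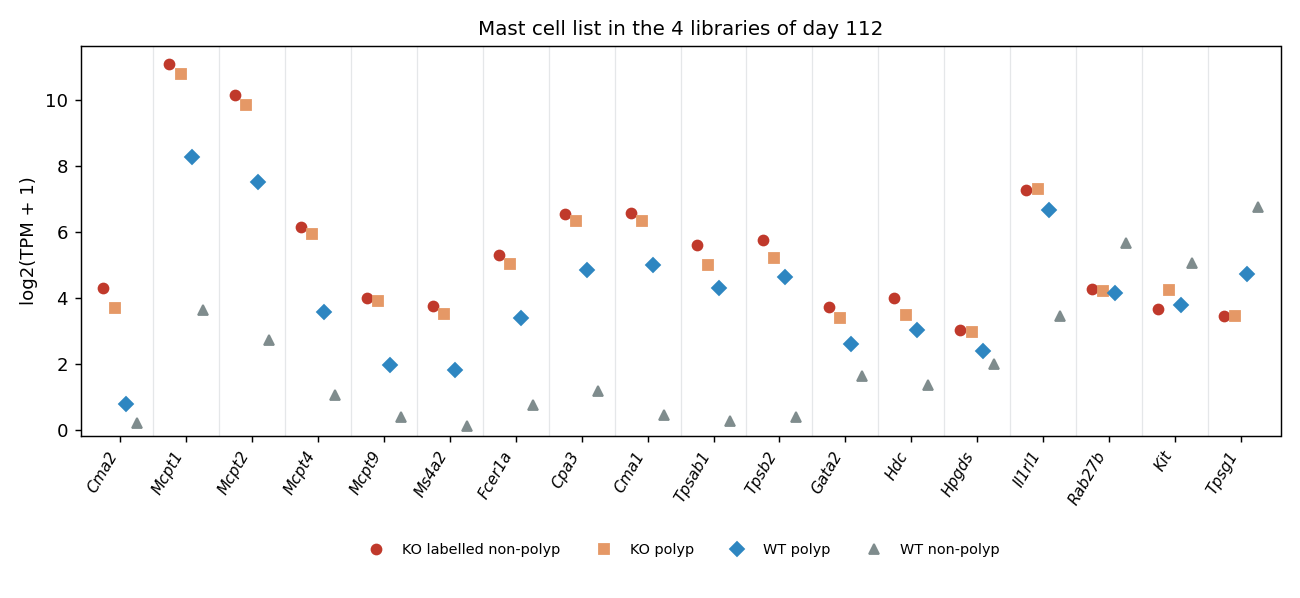
Levels, as log2(TPM + 1), of the 18 measured mast cell genes in the library labelled KO non-polyp (red circles), KO polyp (orange squares), WT polyp (blue diamonds) and WT non-polyp (grey triangles), ordered by the difference in the pair, 1 library each. From Cma2 to Tpsb2 both KO libraries lie above WT polyp, which lies above WT non-polyp.

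The measured signals that recruit or feed mast cells were mostly alike. Kitl, the ligand of Kit, had 112 TPM in the library labelled KO non-polyp and 86.5 TPM in WT polyp, and 119 TPM in KO polyp against 56.6 TPM in WT non-polyp. Il33 differed by 0.03, and by -0.14 with median-of-ratios rescaling. Of 13 genes on this list 7 were measured, and the rest did not reach the level filter. Of the 7, Ccl24, a chemokine for eosinophils, was apart. Ccl24 had 19.7 TPM in the library labelled KO non-polyp and 3.98 TPM in WT polyp, and 18.2 TPM in KO polyp against 1.82 TPM in WT non-polyp. Of 10 eosinophil and basophil genes 2 were measured. Ear2, a ribonuclease, was lower, with 1.14 TPM in the library labelled KO non-polyp and 5.98 TPM in WT polyp. Alox15, a lipoxygenase, was not apart, with 131 TPM in the library labelled KO non-polyp and 176 TPM in WT polyp.

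Other immune lists were closer. No gene of 16 for macrophages and monocytes, of 9 for dendritic cells, of 10 for MHC class II or of 17 for interferon-stimulated genes was apart. Of 15 T and NK cell genes, Gzmb, a granule protease, was higher, with 20.6 TPM in the library labelled KO non-polyp and 5.96 TPM in WT polyp, and 15.6 TPM in KO polyp against 0.278 TPM in WT non-polyp. Of 14 neutrophil genes, Trem1 and Csf3r were higher, at 1.21 and 1.10, and Ngp, a granule protein of immature neutrophils, was lower, with 0.501 TPM in the library labelled KO non-polyp and 10.6 TPM in WT polyp, and 0.455 TPM in KO polyp against 0.655 TPM in WT non-polyp. S100a8 and S100a9, the calprotectin subunits of neutrophils, were not apart, at 0.43 and 0.62. Of 16 B and plasma cell genes 3 were higher (4.55% of all genes were) and none lower. Ighg1, the IgG1 constant region, had 225 TPM in the library labelled KO non-polyp and 22.7 TPM in WT polyp, and 68.7 TPM in KO polyp against 67.9 TPM in WT non-polyp, whereas Igha, the IgA constant region, differed by 0.57. Ighg1 was thus high in the library labelled KO non-polyp and low in WT polyp, with the remaining day 112 libraries in the middle. Of 189 immunoglobulin variable segments, 73 were at least 2-fold higher (4.55% of all genes were) and 10 lower (1.86%). These segments are near copies of each other, and single plasma cell clones can carry them.

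Cytokine genes were apart in 4 of 12 cases, all higher in the library labelled KO non-polyp (4.55% of all genes were). Il6 had 22.2 TPM in the library labelled KO non-polyp and 4.54 TPM in WT polyp, and 12.7 TPM in KO polyp against 0.124 TPM in WT non-polyp. Csf3, the neutrophil growth factor, differed by 2.07, Il11, a relative of Il6 made by stroma, by 1.09, and Il1b by 1.03. Immediate early and stress genes moved with these, 9 of 15 being at least 2-fold higher (beside 4.55% of all genes) and none lower, with a median of 1.45. Fosb had 86.6 TPM in the library labelled KO non-polyp and 7.63 TPM in WT polyp, and 55.7 TPM in KO polyp against 12.2 TPM in WT non-polyp. Nr4a1, an orphan nuclear receptor, had 173 TPM in the library labelled KO non-polyp and 42.4 TPM in WT polyp, and 115 TPM in KO polyp against 30.1 TPM in WT non-polyp. The heat shock genes Hspa1a and Hspa1b, near copies that may share reads, differed by 3.15 and 2.70. The summed level of this list was 2484 TPM in the library labelled KO non-polyp and 1386 TPM in WT polyp, and 2110 TPM in KO polyp against 1516 TPM in WT non-polyp. Genes of this kind respond within minutes to handling of tissue, and their part in the cytokine and injury-repair differences was not tested.

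Hox genes of the A and B clusters matched in most cases, and those of the D cluster did not. Of 39 Hox genes 26 reached the level filter. No Hoxc gene did, and the highest Hoxc level was 0 in the library labelled KO non-polyp and 0.017 TPM in WT polyp, and 0 in KO polyp against 1.03 TPM in WT non-polyp. Of 10 Hoxa genes Hoxa6 was apart, at 1.23, and of 9 Hoxb genes Hoxb3 and Hoxb6 were, at 1.35 and 1.11. The cluster medians were 0.13 for Hoxa and 0.10 for Hoxb, and both turn slightly negative (-0.02 and -0.05) with median-of-ratios rescaling. Hoxb13, the most distal gene of its cluster, had 199.9 TPM in the library labelled KO non-polyp and 239 TPM in WT polyp, and 216 TPM in KO polyp against 71.0 TPM in WT non-polyp. Hoxa9 had 77.5 TPM in the library labelled KO non-polyp and 51.9 TPM in WT polyp, and 77.6 TPM in KO polyp against 41.3 TPM in WT non-polyp. Hoxb3 was 2.66 TPM in the library labelled KO non-polyp and 0.441 TPM in WT polyp, and 0.360 TPM in KO polyp against 4.72 TPM in WT non-polyp, so that here the library labelled KO non-polyp stood with WT non-polyp. The remaining measured Hoxa and Hoxb genes lay between -0.41 (Hoxa7) and 0.57 (Hoxa9).

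Of 7 Hoxd genes 4 were at least 2-fold higher in the library labelled KO non-polyp (4.55% of all genes were). None was lower, and the median was 1.38. Hoxd12 (chr2:74675013-74677705, plus strand) had 29.5 TPM in the library labelled KO non-polyp and 0.075 TPM in WT polyp, and 20.9 TPM in KO polyp against 0.197 TPM in WT non-polyp. Its difference of 4.83 was the largest among genes with an assigned name, immunoglobulin segments left out. Hoxd12 lay between 8.82 and 14.9 TPM in the 4 libraries of steady state and DSS, WT included, so that the 2 day 112 WT libraries stood low. Hoxd13 (chr2:74668310-74671599), its neighbour and the last gene of the cluster, had 129.8 TPM in the library labelled KO non-polyp and 41.1 TPM in WT polyp, and 131 TPM in KO polyp against 1.91 TPM in WT non-polyp. Steady-state and DSS libraries had 157 to 183 TPM of Hoxd13. Hoxd11 had 45.0 TPM in the library labelled KO non-polyp and 8.71 TPM in WT polyp, and 39.6 TPM in KO polyp against 0.563 TPM in WT non-polyp. Hoxd10 had 16.7 TPM in the library labelled KO non-polyp and 5.78 TPM in WT polyp, and 15.4 TPM in KO polyp against 0.438 TPM in WT non-polyp. Hoxd9, Hoxd8 and Hoxd4, toward the other end of the cluster, were not apart, at 0.80, 0.16 and 0.35. The 4 genes that were apart are the 4 at the 5′ end, and in Hoxd10, Hoxd11 and Hoxd13 both KO libraries were highest, WT polyp intermediate and WT non-polyp lowest, as for the mast cell proteases. The summed Hoxd level was 233 TPM in the library labelled KO non-polyp and 62.5 TPM in WT polyp, and 215 TPM in KO polyp against 12.8 TPM in WT non-polyp. At steady state and after DSS it was 240 to 273 TPM, so for Hoxd the WT libraries of day 112 stood low. The mast cell list differed in this, with 133 to 226 TPM at steady state and after DSS, below both KO libraries of day 112. None of 9 regional transcription factors was apart, and Cdx2 differed by -0.72.

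**Figure D5:**
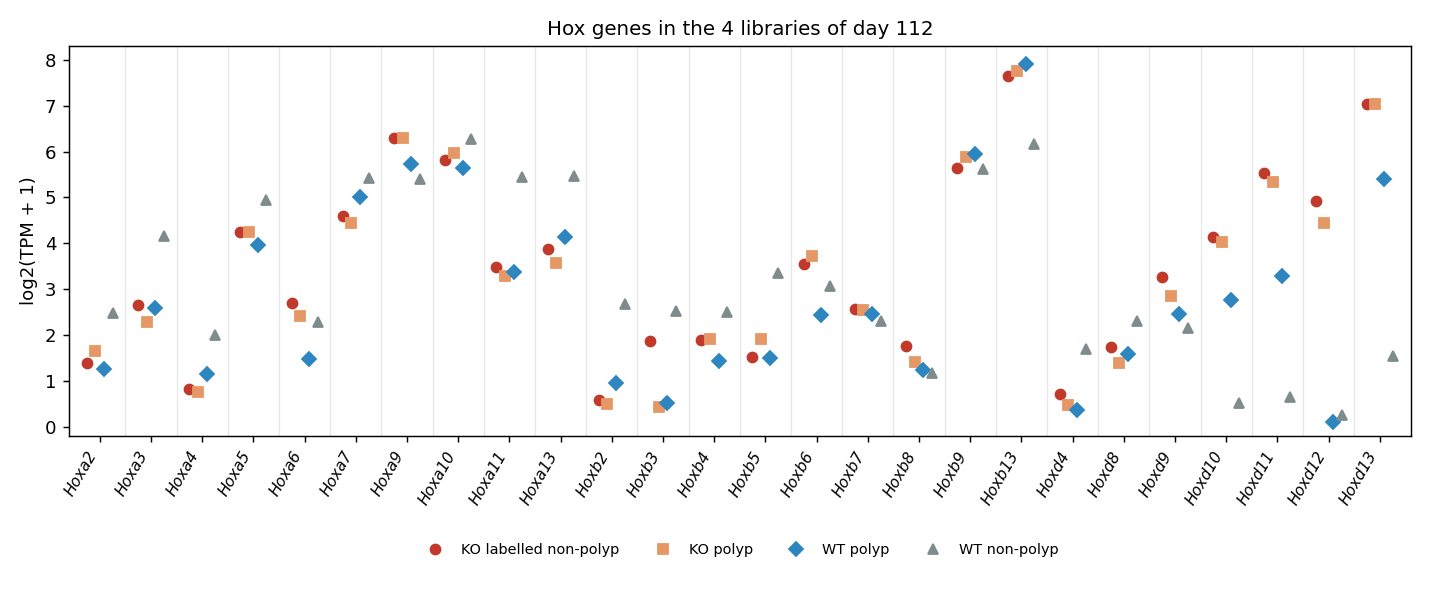
Levels, as log2(TPM + 1), of the 26 measured Hox genes in the library labelled KO non-polyp (red circles), KO polyp (orange squares), WT polyp (blue diamonds) and WT non-polyp (grey triangles), in cluster order, 1 library each. Hoxd10 to Hoxd13, at the right, are high in both KO libraries and near 0 in WT non-polyp, and Hoxb13 is lower in WT non-polyp (71.0 TPM) than in the other 3 libraries.

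To see which library a difference belonged to, genes were counted that stood at least 2-fold above or below both of the other 2 among the library labelled KO non-polyp, KO polyp and WT polyp. The library labelled KO non-polyp had 115 genes above (0.682%) and 67 below (0.397%), KO polyp had 87 above (0.516%) and 80 below (0.474%), and WT polyp had 168 above (0.996%) and 361 below (2.14%). WT polyp, then, was the most distinct of the 3 by this count, and the other 2 share the KO genotype. The median difference of all genes from WT polyp was 0.12 in the library labelled KO non-polyp and 0.13 in KO polyp. This count was not repeated with another scaling. Of the 182 genes in which the library labelled KO non-polyp stood apart, WT non-polyp was also at least 2-fold beyond both polyp libraries in the same direction in 49, 31 above and 18 below. The share of all genes in which WT non-polyp lay beyond both polyp libraries was not counted, so the 49 cannot be set beside it. In either direction, WT non-polyp was at least 2-fold apart from WT polyp in 18.9% of all genes and from KO polyp in 25.8%. Abcg2, an efflux transporter of the apical membrane, was among the 31 above, with 10.6 TPM in the library labelled KO non-polyp and 1.07 TPM in WT polyp, and 0.827 TPM in KO polyp against 50.1 TPM in WT non-polyp. Lpp, a focal adhesion protein, had 21.0 TPM in the library labelled KO non-polyp and 1.85 TPM in WT polyp, and 2.67 TPM in KO polyp against 13.1 TPM in WT non-polyp. Shld1, a DNA repair factor, was among those below, with 0.565 TPM in the library labelled KO non-polyp and 28.9 TPM in WT polyp, and 23.3 TPM in KO polyp against 0.244 TPM in WT non-polyp. Mir31 was another, with 0.502 TPM in the library labelled KO non-polyp and 23.5 TPM in WT polyp, and 30.5 TPM in KO polyp against 0 in WT non-polyp. In these 49 genes the library labelled KO non-polyp departed from the polyps in the same direction as WT non-polyp, but not always as far. Cfd had 1.33 TPM in the library labelled KO non-polyp, where WT non-polyp had 173 TPM. Its level was 0.103 TPM in WT polyp and 0 in KO polyp. Other genes set the library labelled KO non-polyp apart from all 3. Sdc1, a syndecan of epithelium and plasma cells, had 340 TPM in that library and 108 TPM in WT polyp. It had 68.5 TPM in KO polyp against 30.3 TPM in WT non-polyp. Asb5 had 8.46 TPM in the library labelled KO non-polyp and 0.036 TPM in WT polyp, and was at most 0.164 TPM in every other library. Raly, an RNA-binding protein, had 43.7 TPM in the library labelled KO non-polyp and 321 TPM in WT polyp, and 360 TPM in KO polyp against 258 TPM in WT non-polyp.

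Part of the pair's differences followed genotype at steady state and after DSS. At steady state and after DSS alike, 39 genes (0.231%) were at least 2-fold higher in KO than in WT. Of these, 14 (35.9%) were so in the pair as well, beside 4.55% of all genes. Those 14 are 1.82% of the 768 genes higher there. In the other direction 15 genes (0.089%) were lower in KO at both stages. Of these, 5 (33.3%) were lower in the pair, beside 1.86% of all genes, and they are 1.59% of its 314. Clec4a2, the gene lost in KO, is among the 5. Several of the genes that followed genotype lie on chromosome 6 with Clec4a2, such as Gm18840 and Bcl2l14 (chr6:134396318-134438736). Bcl2l14, a member of the Bcl2 family, had 40.6 TPM in the library labelled KO non-polyp and 5.67 TPM in WT polyp, and 39.4 TPM in KO polyp against 7.37 TPM in WT non-polyp. Jarid2, a cofactor of the Polycomb complex, had 19.5 TPM in the library labelled KO non-polyp and 2.62 TPM in WT polyp, and 18.7 TPM in KO polyp against 9.32 TPM in WT non-polyp. Both genes were higher in KO than in WT at all 4 stages. Psen2, a presenilin, had 8.75 TPM in the library labelled KO non-polyp and 18.9 TPM in WT polyp, and 5.30 TPM in KO polyp against 18.6 TPM in WT non-polyp. Neither the mast cell proteases nor the Hoxd genes were among these 19. Entry needed a 2-fold difference at steady state and after DSS, where some proteases lay near 0. Mcpt2 had 0.517 TPM in KO and 0.301 TPM in WT at steady state. Absence from the 19 therefore does not say whether the day 112 differences followed genotype, which was not tested.

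Among the genes of largest difference on no list, the junction protein Afdn had 95.2 TPM in the library labelled KO non-polyp and 9.43 TPM in WT polyp, and 83.6 TPM in KO polyp against 20.5 TPM in WT non-polyp. Ano6, a lipid scramblase, and Arc, an activity-induced gene, differed by 3.08 and 2.71. Apod, a lipid carrier, had 3.68 TPM in the library labelled KO non-polyp and 28.1 TPM in WT polyp, and 4.13 TPM in KO polyp against 24.9 TPM in WT non-polyp. Snurf, an imprinted gene, had 4.67 TPM in the library labelled KO non-polyp and 32.3 TPM in WT polyp, and 12.6 TPM in KO polyp against 70.9 TPM in WT non-polyp. In Apod and Snurf both WT libraries of day 112 lay above both KO libraries.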

How the data were processed

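Colon and polyp tissue was flash frozen, and libraries were prepared with a NEBNext Ultra RNA kit, per the labels' protocols. For each gene the authors deposited coverage (a signal per base), FPKM and TPM. StringTie and the build GRCm38 (mm10) are named in the submitters' processing notes. The sources used here do not give the StringTie version, the aligner, the annotation or any use of strand, so overlapping antisense genes cannot be told apart. In 6 of 8 deposited files loci assembled from the reads stand below the annotated genes, and their TPM columns therefore sum to more than the scale of TPM. Annotated rows alone were used, and summed to between 895587 and 940132 TPM per library.

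TPM was summed per gene ID, which joined several rows in 13 genes, and 27 genes missing from a library were dropped. Symbols came from the reference name table, which matched 54686 of 54715 gene IDs. Deposited TPM and FPKM should keep 1 ratio per library. In 10 genes (Cxcl1, Cxcl2, Cxcl3, Cxcl5, Il17a, Il17f, Tnf, Csf2, Stat5a and Stat5b) it departed by over 0.1% from the library's median, where FPKM was at least 0.05, and these were left out. The nearest of the 10 to that limit departed by 8.55% (Cxcl3, 0.169 TPM in the library labelled KO non-polyp and 14.9 TPM in WT polyp), and the farthest of those kept by 0.0014% (Gm12706, at 0 TPM in both libraries).

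Differences are of log2(TPM + 1), over genes with a mean of at least 1 TPM, with no test, since each group is 1 library. Read counts are unknown, so no counting interval is given. Genes open to naming were set by rule, and not all of them are given here. They were Clec4a2, up to 8 members per list by size of difference, and all measured mast cell and Hox genes. The 15 largest differences of each sign, and the 8 of each sign on no list, completed them. Genes outside that rule (list members given for their level or a named role, the Defa family, genes apart from both polyp libraries, and genes that followed genotype) were chosen after their values were seen. The pair, the 35 gene lists and the tests were chosen with earlier results of these data known. The counting was tested on simulated data. Python 3.11.15, pandas 2.3.3, numpy 2.4.6 and matplotlib 3.10.9 were used. Alternatives were another pseudocount, median-of-ratios scaling, a common annotated total, FPKM, other filters, the 10 genes kept, and a 4-fold line.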

Additional observations from a re-analysis of the deposited data

How the results depend on the processing

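No paired analysis was possible because each group is 1 library with no test. Counts of genes apart in the pair (all, higher and lower in the library labelled KO non-polyp) were 1890, 1266 and 624 with a pseudocount of 0.1, 648, 454 and 194 with a mean of at least 5 TPM, and 142, 100 and 42 at 4-fold. With FPKM 693 genes were apart, 393 of them higher. At 4-fold, 1208 of 1266 polyp genes (95.4%) matched. Between 79.7% and 90.2% of polyp genes matched under the other alternatives. List medians moved with a pseudocount of 0.1 for tuft cell (0.88), enteric neuron and glia (-0.36) and eosinophil and basophil genes (-1.36), and with FPKM for immediate early genes (1.11). They moved with no filter for mast cell (1.10) and Hox D genes (0.80), and with a mean of at least 5 TPM for enteroendocrine (-0.42), squamous (0.72), eosinophil and basophil (-0.42), dendritic cell (0.75) and Hox B genes (-0.26). With no filter the eosinophil and basophil median was 0.00. Filters change which members are counted, and other causes were not tested. Of 294 named genes' differences 48 moved by over 0.257 with a pseudocount of 0.1 and 39 with FPKM, and no gene past the 2-fold line changed sign. Median-of-ratios scaling turned the sign of medians near 0 for the pan-epithelial, squamous, endothelial, neutrophil, dendritic cell, T and NK cell, Hox A and Hox B lists. Depth allows no interval on a single value.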
